A study of Mus musculus with 6 samples.

Results

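The genes described here are 6 genes of zinc handling in mouse CD8+ T cells: the metallothioneins Mt1, Mt2 and Mt3, the metal-sensing transcription factor Mtf1, the zinc exporter Slc30a1 and the zinc importer Slc39a10. They are 6 of the 55414 genes counted. They were chosen by name because the RNA of Mt3 was much higher after N4 stimulation, so their N4 against naive values, and those of Mt3 in N4 against T4, are given as a description with no test. All 6 passed the filter on low counts, as did 23003 genes in all.

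The CD8+ T cells of all 3 groups carried the OT-I receptor, a transgenic T cell receptor that recognises a fragment of ovalbumin. The libraries also held RNA of other cells, as given below. The N4 group was stimulated with the N4 peptide, which is the natural ovalbumin fragment, and the T4 group with T4, an altered form that this receptor binds less well; both were taken 4 days later. Antibodies to OX40 and 4-1BB, which are costimulatory receptors of T cells, accompanied either peptide, and naive OT-I cells, for which the labels name no peptide and no antibody, formed the third group. Each of the 3 groups held 2 libraries of polyadenylated RNA, from spleen and lymph nodes per the sample labels. The labels used here give neither age nor sex and do not tell whether the replicates were separate mice, so p-values here reflect the spread between libraries, some or all of which may be technical.

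Metallothioneins are small cysteine-rich proteins that bind zinc and copper and buffer free zinc in the cell. When zinc rises, the sensor protein encoded by Mtf1 binds short metal response elements near the start sites of Mt1, Mt2 and Slc30a1 and drives their transcription. The product of Slc30a1 moves zinc out of the cell across the plasma membrane, and that of Slc39a10 moves it in. Mt1 and Mt2 are made in most tissues, whereas Mt3 is best known from the brain.

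The 3 metallothionein genes lie side by side on the plus strand of chromosome 8 (GRCm38 coordinates): Mt3 at 94152607-94154146, Mt2 at 94172664-94173568 and Mt1 at 94179082-94180327. Their start regions are shown because the N4 libraries held far more Mt3 RNA than the others. For Mt1 and Mt2 the groups overlapped on TMM-scaled counts, explained below, though not on every scale. The start region of Slc30a1 is shown because it is another known target of the metal sensor. Each sequence is the RefSeq window from 250 bases before to 50 bases after the start, 5′ to 3′ on the plus strand, which is the strand of all 4 genes shown, from GRCm38.p6. For Mt2 the RefSeq start lies before the start of the gene model given above. Capitals mark each match to the core of the metal response element, TGCACNC or TGCGCNC with N any base, searched on both strands, so that a match on the minus strand is printed as its reverse complement. No matches overlapped.
Mt1, chr8:94178839-94179138: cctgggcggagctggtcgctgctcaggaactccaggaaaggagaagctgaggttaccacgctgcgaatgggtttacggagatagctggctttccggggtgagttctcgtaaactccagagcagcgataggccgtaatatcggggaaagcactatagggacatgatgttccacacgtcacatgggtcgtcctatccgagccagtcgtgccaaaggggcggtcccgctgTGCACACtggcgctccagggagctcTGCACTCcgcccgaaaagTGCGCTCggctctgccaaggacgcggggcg
Mt2, chr8:94172368-94172667: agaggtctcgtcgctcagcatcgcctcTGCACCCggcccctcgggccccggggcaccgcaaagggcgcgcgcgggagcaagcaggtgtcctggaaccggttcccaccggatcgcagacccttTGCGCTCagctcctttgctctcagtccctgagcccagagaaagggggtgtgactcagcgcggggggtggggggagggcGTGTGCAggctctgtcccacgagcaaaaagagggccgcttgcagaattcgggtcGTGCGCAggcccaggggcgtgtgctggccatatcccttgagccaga
Mt3, chr8:94152357-94152656: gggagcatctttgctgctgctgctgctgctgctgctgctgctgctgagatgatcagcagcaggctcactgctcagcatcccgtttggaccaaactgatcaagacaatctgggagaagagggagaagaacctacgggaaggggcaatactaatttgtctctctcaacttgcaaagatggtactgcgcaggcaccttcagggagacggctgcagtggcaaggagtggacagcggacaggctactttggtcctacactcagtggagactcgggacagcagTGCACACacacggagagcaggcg
Slc30a1, chr1:191906531-191906830: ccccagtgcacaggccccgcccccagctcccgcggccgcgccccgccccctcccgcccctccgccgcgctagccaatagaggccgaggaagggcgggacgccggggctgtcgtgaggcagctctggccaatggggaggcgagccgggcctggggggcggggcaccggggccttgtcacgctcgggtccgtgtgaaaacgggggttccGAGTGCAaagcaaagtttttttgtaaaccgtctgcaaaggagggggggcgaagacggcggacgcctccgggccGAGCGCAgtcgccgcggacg
The Mt1 window held 3 matches, the Mt2 window 4, the Mt3 window 1 and the Slc30a1 window 2. The Mtf1 window and both Slc39a10 windows held 0. Among 32817 RefSeq windows of the same length, 25.7% held at least 1 match, 7.12% at least 2, 1.97% at least 3 and 0.518% at least 4. So the single match of Mt3 was common among start regions, and the counts of Mt1 and Mt2 were rarer. Matches outside these windows were not counted, so each count depends on the annotated start that was used. A match is a string of letters in the window and was not tested as a binding site.

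The libraries held between 269033066 and 335968843 estimated counts, so that 3 counts corresponded to between 0.00683 and 0.0147 CPM (counts scaled to a common library total, corrected by the TMM factor). Markers of CD8 T cells were present in all 6 libraries: the CPM of 8 markers summed to between 4047 and 7530, and Cd8a ranged from 72.2 to 183. Markers of other cells differed between groups. The 10 neutrophil markers summed to 2453 and 25357 CPM in the naive libraries, 12.9 and 5.49 in the T4 libraries and 47.6 and 39.4 in the N4 libraries, so naive replicate 2 stood apart from the rest. The 12 macrophage and monocyte markers summed to 2266 and 2669 in naive, 270 and 256 in T4 and 20.9 and 16.8 in N4. In such bulk samples, fewer cells of a type and less RNA per cell cannot be told apart. Scaling also bears on the directions below: with total-count scaling in place of TMM, the median log2 fold change of all tested genes moved from -0.09 to -0.65 in N4 against naive, from 0.0040 to 0.30 in T4 against naive and from -0.20 to -1.05 in N4 against T4.

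Mt3 RNA was high in both N4 libraries and near 1 CPM in the other 4. Its level was 0.797 and 1.19 CPM in the naive libraries, 0.627 and 1.11 in the T4 libraries and 59.6 and 98.8 in the N4 libraries. The group means were 79.2 ± 27.7 CPM for N4, 0.869 ± 0.342 for T4 and 0.995 ± 0.280 for naive (SD, n = 2 each). The T4 and naive ranges overlapped, and both lay far below the N4 libraries. The fitted N4 level was 79.7-fold the naive level (log2 fold change 6.32) and 91.2-fold the T4 level (log2 fold change 6.51). Under total-count scaling these log2 fold changes were 5.78 and 5.62, against the shifted medians given above. In T4 against naive, where Mt3 was tested, the log2 fold change was -0.19 (SE 0.42, adjusted p = 0.90 by edgeR's quasi-likelihood test over all genes), and it was 0.16 under total-count scaling.

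The T4 and naive levels of Mt3 were low but well counted. Its estimated counts were 253 and 430 in T4, 350 and 298 in naive, and 13161 and 20233 in N4. At least 99.6% of them in every library were assigned to the coding transcript Mt3-201. None of the 487 stretches of 50 bases in Mt3-201 occurred in a transcript of another gene, and the same was true of the 500 stretches of Mt1-201 and the 462 of Mt2-201. No exon of another annotated gene overlapped those of Mt3.

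**Figure D1:**
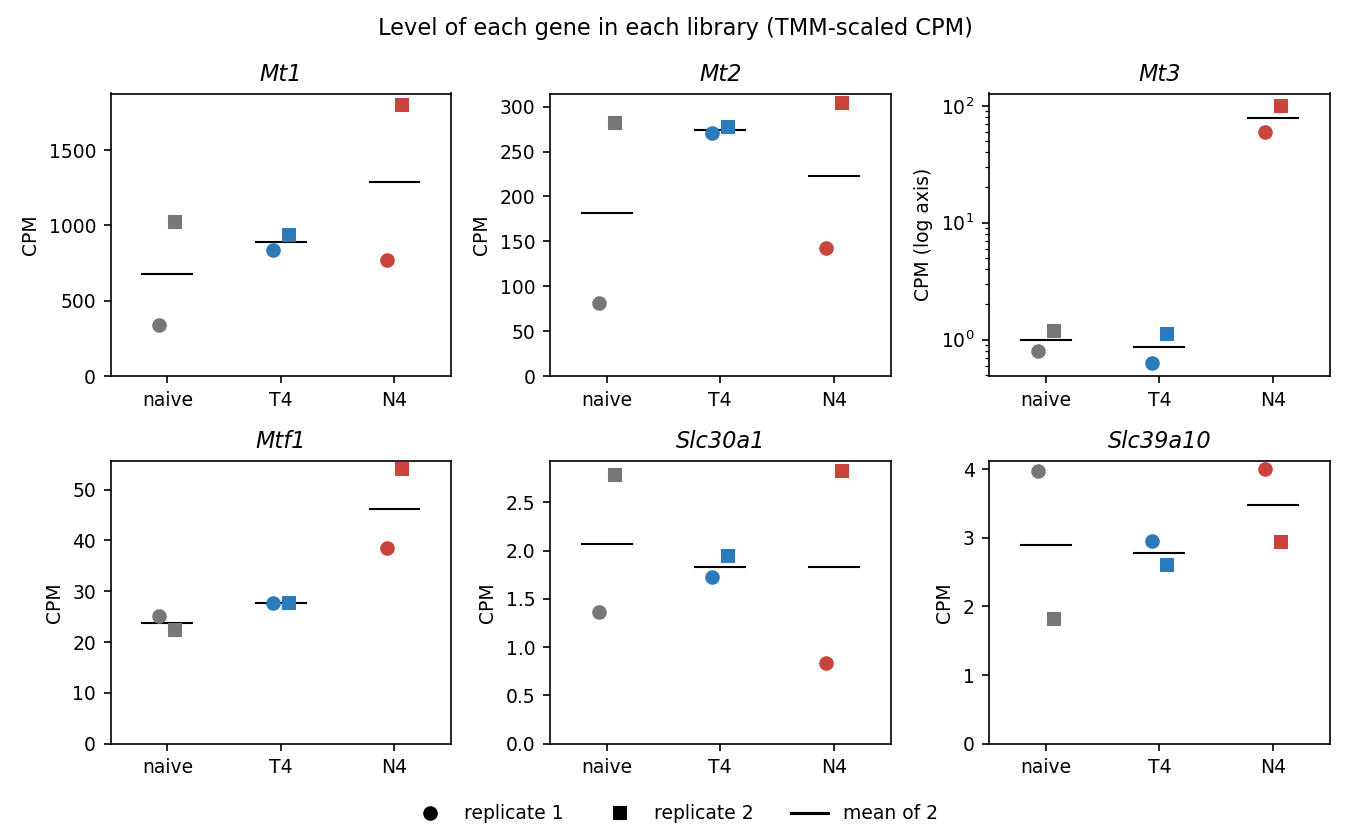
Level of each of the 6 genes in each library, as TMM-scaled CPM, with naive, T4 and N4 libraries along the x axis. Circles are replicate 1, squares replicate 2 and bars the mean of 2; the Mt3 axis is logarithmic. Mt3 was 59.6 and 98.8 CPM in N4 and at most 1.19 in the other libraries, whereas the groups overlapped for Mt1, Mt2, Slc30a1 and Slc39a10.

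Set against all genes per transcript length (TPM, counts divided by transcript length and scaled to the same sum in every library), Mt3 lay in the middle of the list of detected genes in T4 and naive and near its upper end in N4. Among 22714 genes it ranked 9616 and 7954 in naive, 10309 and 8375 in T4 and 1199 and 986 in the N4 libraries. Its level was 1.83 and 1.42 TPM in naive, 1.48 and 2.39 in T4 and 76.8 and 95.9 in N4.

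Mt1 was the most abundant of the 6 genes in every library, and it was not called in either tested comparison. Its level was 337 and 1023 CPM in naive, 835 and 940 in T4 and 771 and 1802 in N4, or 680 ± 485, 887 ± 73.9 and 1287 ± 729 as mean and SD (n = 2 each). All 3 ranges overlapped. The log2 fold change of Mt1 was 0.38 in T4 against naive (SE 0.61, adjusted p = 0.85 by edgeR) and 0.54 in N4 against T4 (SE 0.61, adjusted p = 0.62), and the N4 against naive value was 0.92. The sign of N4 against T4 turned with total-count scaling (-0.39), and it also turned without N4 replicate 2 (-0.21). Leaving out naive replicate 1 turned T4 against naive to -0.30.

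In TPM, which carry no TMM factor, the order of the Mt1 levels was different. Mt1 reached 750 and 1186 TPM in naive, 1908 and 1957 in T4 and 966 and 1693 in N4, so that on this scale both T4 libraries lay above all others. Among all genes Mt1 ranked 238 and 173 in naive, 101 and 100 in T4 and 203 and 130 in N4. Which stimulated group had more Mt1 thus depended on the scale. Mt2, described next, was likewise above all other libraries in T4 on this scale, at 197 and 353 TPM in naive, 671 and 625 in T4 and 193 and 309 in N4. With total-count scaling, which has no length step, Mt1 was 440 and 852 CPM in naive, 1136 and 1206 in T4 and 633 and 1155 in N4. Mt2 was then 107 and 235 CPM in naive, 369 and 355 in T4 and 117 and 195 in N4. The order thus changed with the scaling of the libraries, also without a length step.

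Mt2, the close partner of Mt1, gave 81.8 and 282 CPM in naive, 271 and 277 in T4 and 143 and 303 in N4. The T4 libraries were close together, and they lay inside the range of the N4 and naive libraries. The log2 fold change of Mt2 was 0.59 in T4 against naive (SE 0.62, adjusted p = 0.76 by edgeR) and -0.30 in N4 against T4 (SE 0.62, adjusted p = 0.81), and the N4 against naive value was 0.29, or -0.13 under total-count scaling. Leaving out single libraries gave values of either sign for Mt2: -0.13 to 1.74 in T4 against naive, -0.94 to 0.15 in N4 against T4 and -0.49 to 1.44 in N4 against naive. The lower of the naive libraries for both Mt1 and Mt2 was replicate 1, and the higher was replicate 2, the library with 25357 CPM of neutrophil markers. The part of other cells in that difference was not tested.

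The Mt2 values are less certain than those of Mt1 and Mt3. The gene Gm45774 lies on the opposite strand and overlaps 69.5% of the coding transcript Mt2-201, and the library kit does not mark strand. Counts assigned to Gm45774 came to between 46.7% and 64.5% of the Mt2 count in each library.

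Within a library, the ratio of Mt1 to Mt2 does not depend on the scaling of the library. Per length it was 3.81 and 3.36 in naive, 2.84 and 3.13 in T4 and 5.003 and 5.48 in N4, or 3.59 ± 0.32, 2.99 ± 0.21 and 5.24 ± 0.34 as mean and SD (n = 2 each). The 3 groups did not overlap. The exact two-sided permutation test gave p = 0.333 for T4 against naive and for N4 against T4, the smallest value that 2 libraries against 2 allow, so that no call can be made from it. With the counts of Gm45774 added to those of Mt2, the ratio of counts was 2.59 and 2.38 in naive, 2.101 and 2.06 in T4 and 3.43 and 3.96 in N4, again with no overlap and in the same order.

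The Mt3 share of metallothionein RNA showed the same separation of N4 that its level did. Of the summed TPM of Mt1, Mt2 and Mt3, Mt3 made up 0.193% and 0.0924% in naive, 0.0574% and 0.0925% in T4 and 6.22% and 4.57% in N4. Mt1 exceeded Mt3 by 12.6 and 17.6 times in the N4 libraries and by at least 410 times in each of the other 4. Even in N4, Mt3 therefore remained the least abundant of the 3 genes. The fourth gene of the family, Mt4, which lies next to Mt3 at chr8:94137197-94139031, had a count of 0 in all 6 libraries.

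**Figure D2:**
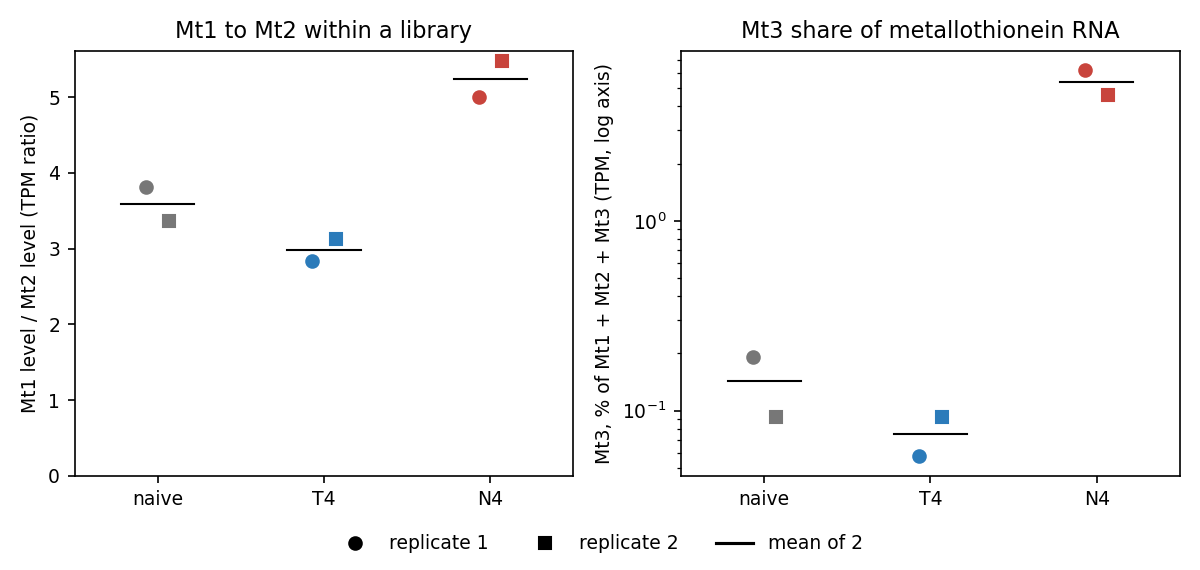
Left, the Mt1 level divided by the Mt2 level within each library (ratio of TPM). Right, Mt3 as a percentage of the summed TPM of Mt1, Mt2 and Mt3 on a logarithmic axis. Circles are replicate 1, squares replicate 2 and bars the mean of 2; both N4 libraries lie above the other 4 in each panel, at ratios of 5.003 and 5.48 and at shares of 6.22% and 4.57%.

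Mtf1, at chr4:124802104-124849800 on the plus strand, encodes the zinc finger protein that senses zinc and switches on metallothionein genes. Its level was 25.2 and 22.3 CPM in naive, 27.7 and 27.8 in T4 and 38.5 and 54.1 in N4. On TMM-scaled CPM the 3 groups did not overlap, with N4 highest and naive lowest, as in TPM. With total-count scaling both T4 libraries were highest, at 37.6 and 35.6 CPM. N4 was then 31.6 and 34.7 CPM and naive 33.0 and 18.6, and these ranges overlapped. The order on TMM-scaled CPM is that of all Mtf1 transcripts together. It did not hold for the long coding transcript Mtf1-201, with 0 counts in both N4 libraries and 5139 and 4081 in T4. In naive that transcript had 5664 and 0 counts, so its naive level cannot be placed in an order. The log2 fold change of Mtf1 was 0.74 in N4 against T4 (SE 0.26, adjusted p = 0.12 by edgeR's quasi-likelihood test) and 0.22 in T4 against naive (SE 0.26, adjusted p = 0.78), and the N4 against naive value was 0.96. DESeq2's Wald test gave an adjusted p of 0.034 for N4 against T4, the lowest of a range of 0.034 to 0.78 over the alternatives tried. Under total-count scaling the value turned to -0.14 while the median of all genes moved to -1.05, and the N4 against naive value of Mtf1 was 0.36.

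Per length, most RNA assigned to Mtf1 was a short transcript annotated as a retained intron. The transcript Mtf1-204, 781 bases long, held 42.9% and 89.0% of Mtf1 counts in naive, 49.5% and 55.3% in T4 and 84.6% and 84.2% in N4. Per length its share was between 78.2% and 97.2%. The long coding transcript Mtf1-201 (7631 bases) held 46.0% and 38.0% of the counts in T4 and 51.1% in naive replicate 1. It held 0 counts in both N4 libraries and in naive replicate 2. Read as counted reads, these allow shares of up to 0.0434%, 0.0333% and 0.0662% (exact Clopper-Pearson 95% limits, which cover counting error only). The counts are estimates, and the error of assigning reads to transcripts, which these limits leave out, was not measured. The other long coding transcript, Mtf1-202, held 0.560% and 9.69% in naive, 2.63% and 2.13% in T4 and 11.5% and 13.97% in N4. The naive libraries differed from each other in the Mtf1-204 share by more than the N4 libraries did from the T4 libraries. Exons of 1110065P20Rik, on the opposite strand, overlap 9.45% of Mtf1-201 and 3.97% of Mtf1-202 and none of Mtf1-204.

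**Figure D3:**
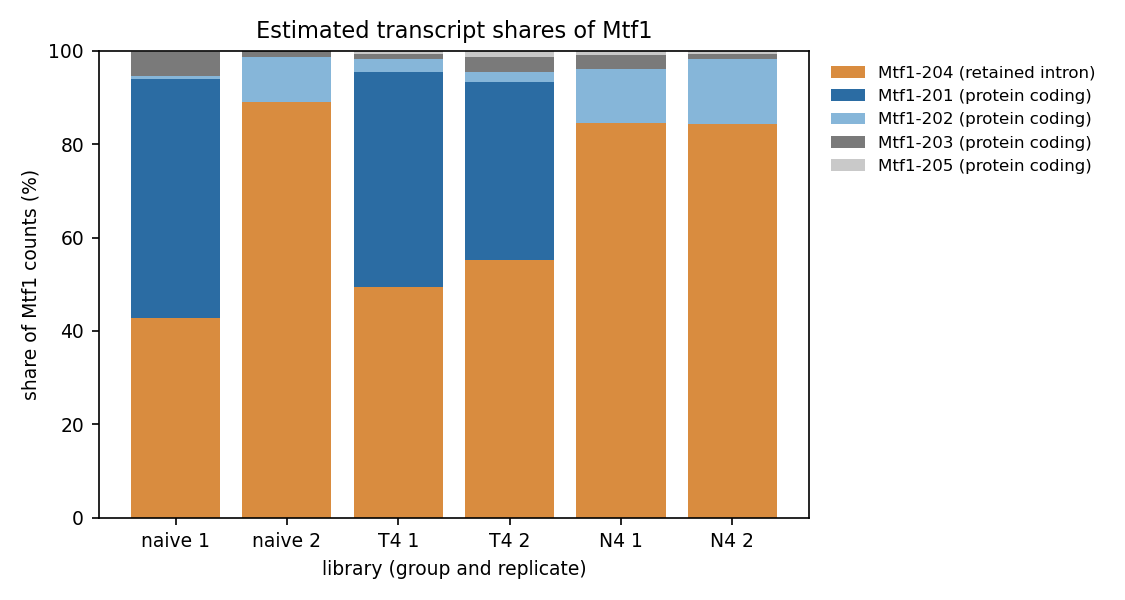
Estimated share of the Mtf1 counts of each library (y axis, percent) assigned to each of its 5 annotated transcripts, with 1 stacked bar per library. The retained-intron transcript Mtf1-204 holds 42.9% to 89.0%, and the coding transcript Mtf1-201 is at 0 in both N4 libraries and in naive replicate 2.

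The transporters Slc30a1 and Slc39a10 were expressed at low levels, and on TMM-scaled CPM their groups overlapped. Slc30a1, the exporter (chr1:191906767-191913247, plus strand), gave 1.36 and 2.79 CPM in naive, 1.73 and 1.94 in T4 and 0.833 and 2.83 in N4. The N4 libraries were the lowest and the highest of the 6. Its log2 fold change was -0.18 in T4 against naive (SE 0.67, adjusted p = 0.95 by edgeR) and -0.0020 in N4 against T4 (SE 0.67, adjusted p = 1.0), and the N4 against naive value was -0.18. Each of these signs turned when some single library was left out, and T4 against naive turned with total-count scaling (0.24). The N4 against T4 value spanned -1.14 without N4 replicate 2 to 0.62 without N4 replicate 1. Per length Slc30a1 was 0.318 and 0.346 TPM in naive, 0.417 and 0.427 in T4 and 0.110 and 0.280 in N4, so that on this scale both T4 libraries were the highest, both N4 libraries the lowest, and the 3 groups did not overlap. With total-count scaling too, both T4 libraries (2.35 and 2.49 CPM) lay above naive (1.78 and 2.32) and N4 (0.684 and 1.81).

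Slc39a10, the importer (chr1:46807544-46892852, minus strand), gave 3.98 and 1.81 CPM in naive, 2.95 and 2.61 in T4 and 4.01 and 2.94 in N4. The groups overlapped, N4 and T4 only narrowly. Its log2 fold change was -0.06 in T4 against naive (SE 0.46, adjusted p = 0.98 by edgeR) and 0.32 in N4 against T4 (SE 0.46, adjusted p = 0.70), and the N4 against naive value was 0.26. With total-count scaling all 3 values turned, to 0.13, -0.51 and -0.38. With that scaling the levels were 5.20 and 1.51 CPM in naive, 4.01 and 3.34 in T4 and 3.29 and 1.88 in N4. Per length they were 0.889 and 0.216 TPM in naive, 0.706 and 0.570 in T4 and 0.518 and 0.307 in N4. On both of these scales the N4 libraries lay below the T4 libraries, and the naive libraries overlapped both groups. Per length Mt1 outranked both transporters by far in every library.

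In T4 against naive, 0 of the 6 genes passed the threshold of an adjusted p under 0.05 by edgeR, beside 0.117% of all genes tested (0.0826% higher and 0.0348% lower). The count was also 0 at an unadjusted p under 0.05, and DESeq2 called 0. In N4 against T4, 0 of the 5 genes other than Mt3 passed, beside 7.96% of all genes tested (3.48% higher and 4.47% lower), and 1, Mtf1, had an unadjusted p under 0.05 and was called by DESeq2. In N4 against naive, 12.1% of all genes passed (4.87% higher and 7.18% lower), and the 6 genes carry no test there. The 3 comparisons share libraries, so their values are not independent of each other.

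The genes did not follow a single pattern across the 6 libraries. On TMM-scaled log2 CPM, Mt1 and Mt2 had a Pearson correlation of 0.880, and Mt3 and Mtf1 of 0.916. Mt2 and Mt3 had a correlation of 0.078. On this scale the exporter Slc30a1 and the importer Slc39a10 had a correlation of -0.797, and Slc39a10 and Mt2 of -0.744. These are descriptions over 6 libraries that share a scaling and, in pairs, a group. With total-count scaling, for which no correlation was computed, Slc30a1, Slc39a10 and Mtf1 were each higher in both T4 libraries than in both N4 libraries.

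Zinc is moved by 2 families of transporters, the ZIP importers (Slc39a) and the ZnT exporters (Slc30a), and the rest of both families together with Mt4 made 23 further genes. Of these, 18 were tested, and Slc39a5, Slc39a12, Slc30a8, Slc30a10 and Mt4 were too low. By edgeR, 0 of the 18 passed in N4 against naive (4 at an unadjusted p under 0.05, and 3 by DESeq2) and 0 in T4 against naive (2 at an unadjusted p under 0.05, and 1 by DESeq2). The DESeq2 counts stand beside 6246 and 1997 of all 23003 genes, and the unadjusted counts have no all-gene share beside them. In N4 against T4, 1 gene was higher and 0 lower, beside 3.48% and 4.47% of all genes. The median log2 fold changes of the 18 genes were -0.12, -0.26 and 0.08 in these 3 comparisons, beside -0.09, 0.0040 and -0.20 over all genes tested.

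The gene that passed was Slc30a4, which moves zinc into intracellular vesicles. Its level was 1.23 and 0.609 CPM in naive, 0.310 and 0.325 in T4 and 1.78 and 2.07 in N4. The N4 libraries were highest and the T4 libraries lowest, with naive between them. Its log2 fold change was 2.60 in N4 against T4 (SE 0.56, adjusted p = 0.047 by edgeR). The call ended with total-count scaling (1.73, adjusted p = 0.15) and without any single N4 or T4 library (adjusted p between 0.098 and 0.31, and as low as 0.00011 by DESeq2 on all libraries), as did most calls in that comparison: without N4 replicate 1, N4 replicate 2, T4 replicate 1 or T4 replicate 2 the number of genes called fell from 1830 to 295, 0, 45 and 0.

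**Figure D4:**
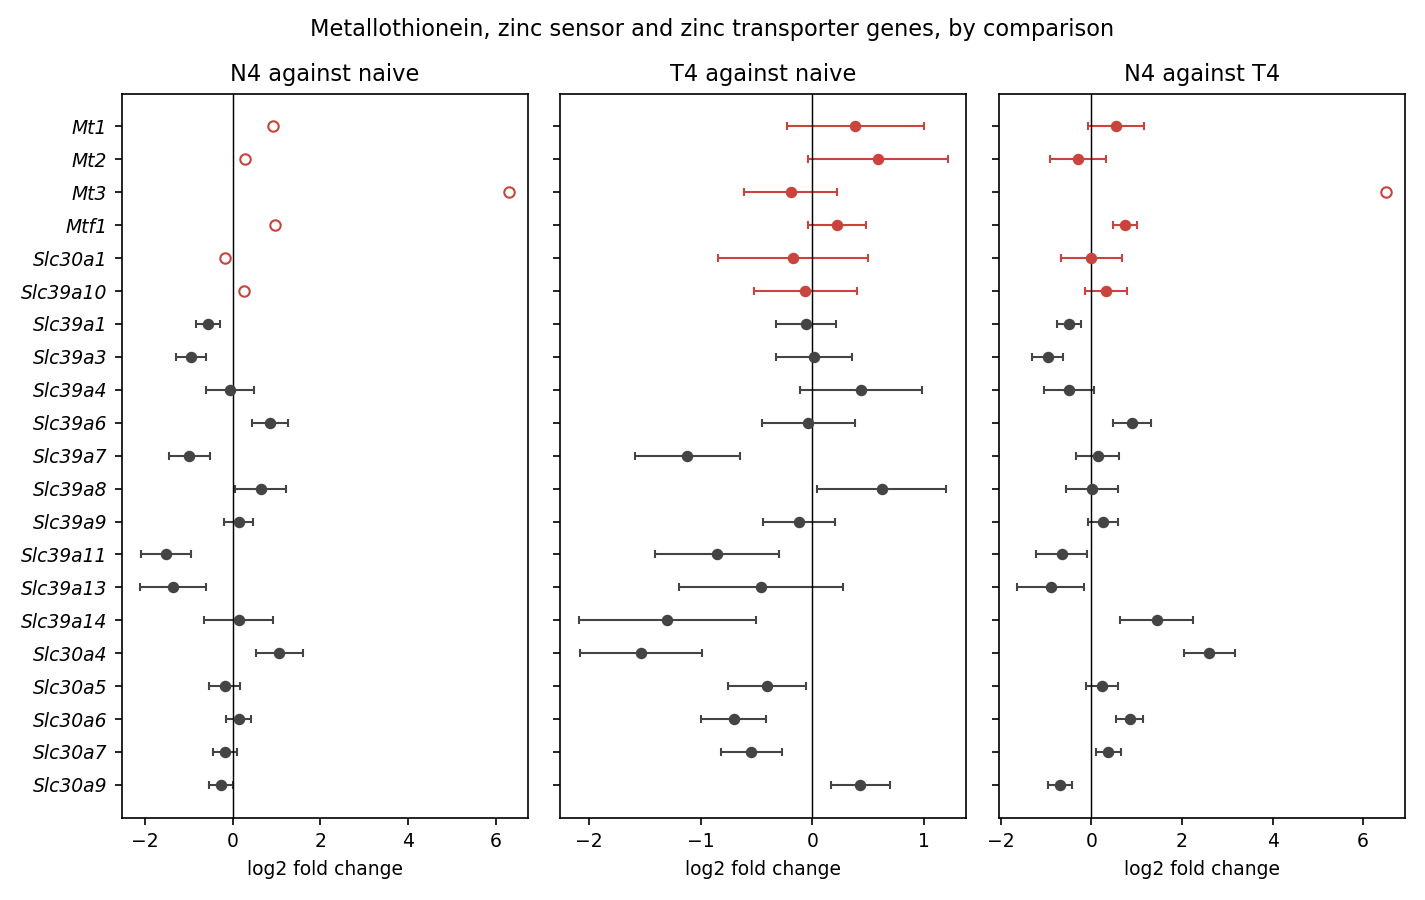
Log2 fold change (x axis) of the 6 genes, in red, and of the 15 other tested ZIP and ZnT genes with a count above 0 in every library, in grey, in each of the 3 comparisons. Bars are the standard error, and open circles without a bar are values given with no test. Mt3 lies at 6.32 and 6.51 in the N4 comparisons and at -0.19 in T4 against naive; Slc30a4 lies at 2.60 in N4 against T4.

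Genes that handle other metals, and genes of stress responses in which Mt1 and Mt2 are known targets, were compared in the same fit. The counts of each of these lists stand beside 4.87% of all genes higher and 7.18% lower in N4 against naive, 0.0826% and 0.0348% in T4 against naive, and 3.48% and 4.47% in N4 against T4, and their medians beside -0.09, 0.0040 and -0.20. In the N4 comparisons, a single call in lists this short is not read as a result about the list. In T4 against naive DESeq2 called 1997 of all 23003 genes, and no all-gene share was computed at an unadjusted p under 0.05. Nothing is read from the list counts by these 2 measures. Of 11 copper genes, 1 rose and 1 fell in N4 against naive, edgeR called 0 in T4 against naive (3 at an unadjusted p under 0.05, and 2 by DESeq2), and 1 rose in N4 against T4. Slc31a1, the high-affinity copper importer, was 32.4 and 51.3 CPM in naive, 22.2 and 22.9 in T4 and 71.7 and 80.4 in N4, and rose in N4 against T4 (log2 fold change 1.75, SE 0.29, adjusted p = 0.031 by edgeR). Cox17, a copper chaperone of cytochrome oxidase, rose in N4 against naive (2.07, SE 0.47, adjusted p = 0.044), and Slc31a2, another copper transporter of the same family, fell (-1.71, SE 0.29, adjusted p = 0.021). The median log2 fold changes of the copper genes were -0.67, -0.08 and 0.02 in N4 against naive, T4 against naive and N4 against T4.

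Of 14 iron genes, 6 fell and 0 rose in N4 against naive, beside 7.18% and 4.87% of all genes. In T4 against naive 1 fell, beside 0.0348%, and in N4 against T4 4 fell and 0 rose, beside 4.47% and 3.48%. The median log2 fold changes were -1.47, -0.28 and -1.15, beside -0.09, 0.0040 and -0.20 over all genes tested. Fth1, the heavy chain of the iron store ferritin, was 985 and 1129.8 CPM in naive, 953 and 1041 in T4 and 253 in both N4 libraries, and fell in N4 against T4 (-1.98, SE 0.25, adjusted p = 0.022 by edgeR). Steap3, an iron reductase of endosomes, fell by 2.65 on the log2 scale in N4 against T4 (adjusted p = 0.016). Hfe, which regulates iron uptake, fell in all 3 comparisons (-6.11, -4.01 and -2.10, adjusted p = 0.0071, 0.047 and 0.031).

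Of 14 genes of the oxidative stress response driven by NRF2, 2 rose and 3 fell in N4 against naive, edgeR called 0 in T4 against naive (4 at an unadjusted p under 0.05, and 3 by DESeq2), and 1 rose and 2 fell in N4 against T4. Their medians were -0.86, -0.03 and -0.41, beside -0.09, 0.0040 and -0.20 over all genes tested. Prdx1, a peroxidase, rose in N4 against T4 (log2 fold change 2.54, SE 0.39, adjusted p = 0.026 by edgeR), whereas Srxn1, which repairs oxidised peroxiredoxins, fell (-3.21, SE 0.61, adjusted p = 0.037). Hmox1, heme oxygenase, was 29.7 and 6.89 CPM in naive and at most 2.16 in the other libraries, and fell in N4 against naive (-3.41, SE 0.76, adjusted p = 0.041).

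Of 10 genes of the glucocorticoid response, 1 rose and 2 fell in N4 against naive, 1 fell in T4 against naive, and 1 rose and 2 fell in N4 against T4. Their medians were -0.95, -0.29 and -0.52, beside the same all-gene medians. Tsc22d3, also known as GILZ, was 334 and 266 CPM in naive, 49.4 and 47.4 in T4 and 25.2 and 32.2 in N4. It fell in N4 against naive (-3.39, adjusted p = 0.0071 by edgeR) and in T4 against naive (-2.63, adjusted p = 0.049). Fkbp5, a chaperone partner that glucocorticoids induce, moved the other way in N4 against naive (2.07, adjusted p = 0.016) and rose in N4 against T4 (1.65, adjusted p = 0.035). Ddit4 did not pass in any comparison (adjusted p between 0.080 and 0.10). Dusp1, a phosphatase of MAP kinases, is named here after its values were seen: it was 22.2 and 76.7 CPM in naive, 93.0 and 96.1 in T4 and 4.82 and 7.09 in N4, and fell in N4 against naive (-3.05, adjusted p = 0.031 by edgeR) and in N4 against T4 (-3.99, adjusted p = 0.028).

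Markers of other cells stood lower in N4 as well. The macrophage markers, from cells that recycle iron, were lower in both stimulated groups than in naive (sums given above), and 10 of the 12 passed as lower in N4 against naive. Hfe and Hmox1 were lower in both stimulated groups too, whereas for Fth1 the T4 and naive libraries overlapped (-0.08) and the N4 libraries lay below them. The 7 red cell markers summed to 3447 and 9232 CPM in naive, 6511 and 8124 in T4 and 423 and 360 in N4, and 6 of the 7 passed as lower in N4 against naive. So did 6 of 8 B cell, 4 of 8 dendritic cell, 5 of 6 natural killer cell and 8 of 10 neutrophil markers. The part of such cells in the values of these lists was not tested.

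Among the calls named here for copper, iron, oxidative stress and glucocorticoid genes, Dusp1 apart, those of Hfe and Tsc22d3 in N4 against naive held without any single library. Each of the others ended without N4 replicate 1 and without N4 replicate 2, and those of N4 against T4 and T4 against naive ended also without T4 replicate 1 and without T4 replicate 2. The calls of Cox17 and Prdx1 in N4 against naive ended without either T4 library as well, and that of Hmox1 without T4 replicate 2. Where these calls ended, the adjusted p lay between 0.051 and 0.33. Without naive replicate 1 the value of Hmox1 in N4 against naive was -2.15 (adjusted p = 0.055 by edgeR). Total-count scaling ended the calls of Slc31a1 and Fkbp5 in N4 against T4 (adjusted p = 0.066 and 0.17), of Hfe and Tsc22d3 in T4 against naive (0.090 and 0.083) and of Hmox1 in N4 against naive (0.053). DESeq2 size factors ended those of Cox17 in N4 against naive (0.052) and of Hfe and Tsc22d3 in T4 against naive (0.051 and 0.053). A fit of only the 2 groups compared ended those of Cox17, Fkbp5, Prdx1, Srxn1 and Hmox1 in N4 against naive (between 0.052 and 0.11) and of Hfe and Tsc22d3 in T4 against naive (0.088 and 0.089). The replicate block ended that of Hmox1 in N4 against naive (0.050). For Dusp1, the call in N4 against naive ended without either N4 library and with only the 2 groups compared (0.060), and that in N4 against T4 ended without any single N4 or T4 library (between 0.091 and 0.12).

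The genes most like Mt3 across the 6 libraries were Impa1, Uimc1, Psmd14, Abce1, Cbx3 and Bcl2a1d, with Pearson correlations of log2 CPM between 0.9968 and 0.9991. They were picked as the highest among 4948 genes of at least moderate level, of which 352 had a correlation of 0.95 or more. Their pattern was alike but their size was not. Impa1, an inositol phosphatase, was 29.9 and 31.6 CPM in naive, 28.0 and 31.5 in T4 and 55.0 and 60.6 in N4, so N4 was 1.88-fold naive where Mt3 was 79.7-fold. Bcl2a1d, of the BCL2 family of survival genes, came closest in size, at 46.3 and 63.6 CPM in naive, 55.3 and 63.1 in T4 and 535 and 681 in N4, or 11.1-fold. Psmd14 encodes a subunit of the proteasome, Abce1 a ribosome recycling factor and Cbx3 a heterochromatin protein.

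The genes most like Mt1 were Amd2 (0.9745), Smim20 (0.9728) and Gabarapl1 (0.9636), and 11 of 4947 genes reached 0.95. Those most like Slc30a1 were Acot13 (0.9926), Hypk (0.9779) and Tigd2 (0.9454), and 2 of 4948 genes reached 0.95. Bcl2a1d and Amd2 have near-identical copies elsewhere in the mouse genome, so their counts are less certain.

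Neighbours of Mt3 on chromosome 8 were read for the same libraries, as the protein-coding genes within 200000 bases, chosen after their values could be seen. Nudt21, which encodes a subunit of an mRNA cleavage factor, was 227 and 346 CPM in naive, 229 and 252 in T4 and 825 and 1093 in N4. It rose in N4 against naive (log2 fold change 1.74, SE 0.32, adjusted p = 0.025 by edgeR) and in N4 against T4 (2.00, SE 0.32, adjusted p = 0.028). Both calls ended without any single N4 or T4 library (adjusted p between 0.062 and 0.25). Nup93, of the nuclear pore, was 6.85 and 5.49 CPM in naive, 11.8 and 7.56 in T4 and 14.4 and 15.99 in N4, and passed in N4 against naive (1.302, SE 0.31, adjusted p = 0.049), a call that ended without any single library (adjusted p between 0.081 and 0.18) and with total-count scaling (0.34). With only the 2 groups compared, the calls of Nudt21 and Nup93 in N4 against naive ended too (0.085 and 0.093). Ogfod1, Bbs2 and Slc12a3 did not pass in any comparison, and Gnao1 and Mt4 were too low to test. None of the neighbours named here had a difference near that of Mt3.

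Because Mt3 is best known from the brain, markers of neurons and glia were read in the same libraries. The 10 markers summed to 27.7 and 17.7 CPM in naive, 17.3 and 16.3 in T4 and 15.6 and 11.5 in N4. Almost all of this was Mbp, at 15.6 and 11.3 CPM in N4, and the other 9 were at most 0.0733 CPM in an N4 library. Gfap, Aqp4, Slc1a2, Syt1, Aldh1l1 and S100b had counts of 0 in both N4 libraries. These markers cover cells of the brain only, and which cells held the Mt3 RNA was not tested.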

How the data were processed

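Polyadenylated RNA of 6 libraries was measured, in 3 groups of 2 taken from the sample titles. The authors deposited estimated counts per gene and per transcript, not normalized, as whole numbers. The genome build in the submitters' processing notes is mm39, and the tools listed there, in no stated order or role, are DESeq2 1.30.1, StringTie 2.1.0, SAMtools 1.9, STAR 2.7.1a and R 4.0.5. The sources used here do not give the annotation release or the strand setting.

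Symbols, transcript lengths and coordinates came from GENCODE M21 on GRCm38, a build other than mm39, and start regions from RefSeq. A symbol was found for 52081 of 55414 genes and a model for 97.1% of transcripts. TPM were computed from transcript counts and model lengths, with no TMM factor.

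Genes were tested with edgeR 4.0.16 (R 4.3.3, limma 3.58.1): TMM scaling, filterByExpr by group, and the quasi-likelihood test over all 6 libraries, with Benjamini-Hochberg adjustment over 23003 genes and a threshold of 0.05. Standard errors were derived from the F statistic, as the log2 fold change over its root. The scripts were tested on simulated data. Libraries of a group differed far beyond sampling noise (chi-square per degree of freedom at least 118), so none was counted as a duplicate. The depth of 269033066 to 335968843 counts puts the limit of a count of 3 below 0.0147 CPM. Alternatives were total-count scaling, DESeq2 1.42.0 size factors and Wald test, no filter, a replicate block, only the 2 groups compared, and each library left out.

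The genes, the lists and the naming rule were chosen with earlier results of these data known. The rule names the 6 genes, each other zinc gene past the threshold, the 3 genes of smallest p in each further list, and those most correlated with Mt3, Mt1 and Slc30a1. The neighbours of Mt3, and the addition of Gm45774 counts to Mt2, were chosen after seeing the data. Not every neighbour is reported here.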

Additional observations from a re-analysis of the deposited data

Results flagged for a closer look

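In 8 genes named by rule from the lists described above, the N4 and T4 groups differed by the test of N4 against T4 itself. Each had an adjusted p under 0.05 by edgeR's quasi-likelihood test, as did 7.96% of all genes tested. Higher in N4 were the zinc transporter Slc30a4 (log2 fold change 2.60), the copper importer Slc31a1 (1.75), the peroxidase Prdx1 (2.54) and the glucocorticoid-induced Fkbp5 (1.65). Lower in N4 were Fth1 (-1.98), Steap3 (-2.65), Hfe (-2.10) and Srxn1 (-3.21). The rule itself picked genes that passed or had the smallest p, so their passing is no independent support. The lists held 18 tested zinc genes, 11 copper, 14 iron, 14 oxidative stress and 10 glucocorticoid genes. For each of these 8 genes the call ended without any single N4 or T4 library. A further 4 genes of these lists, outside the naming rule, also passed in N4 against T4, all lower in N4: Ftl1 (-1.26), Gclm (-0.996), Klf9 (-2.27) and Dusp1 (-3.99). Each of these calls also ended without any single N4 or T4 library. That of Ftl1 ended with DESeq2 size factors (0.052). None of Mt1, Mt2, Mtf1, Slc30a1 and Slc39a10, which were tested in the same comparison, passed. The libraries also differed in RNA of other cells. Red cell markers summed to 6511 and 8124 CPM in T4 and 423 and 360 in N4. Macrophage and monocyte markers summed to 270 and 256 in T4 and 20.9 and 16.8 in N4, whereas neutrophil markers were higher in N4. The part of such cells in these differences was not tested.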

How the results depend on the processing

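With 2 libraries a group, the tests rest on few degrees of freedom, and the direction of small changes depends on scaling. Under total-count scaling these log2 fold changes turned: in N4 against T4, Mt1 -0.39, Mtf1 -0.14, Slc39a10 -0.51, Hmox1 -0.017 and Nup93 -0.22; in N4 against naive, Mt2 -0.13 and Slc39a10 -0.38; in T4 against naive, Mt3 0.16, Slc30a1 0.24, Slc39a10 0.13, Fth1 0.24, Prdx1 0.022, Srxn1 0.12 and Nudt21 0.12. DESeq2 size factors and DESeq2's Wald test turned Slc30a1 in N4 against T4 to 0.022 and Cox17 in T4 against naive to -0.0035. The cause was not tested. Mt3 was above 5.6 in both N4 comparisons under every alternative run.

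The number of other zinc genes called in N4 against T4, 1 by the main test, was 0 with total-count scaling, 4 by DESeq2's Wald test, 2 with no filter, 2 with only the 2 groups compared, and 0 to 1 with a library left out. In N4 against naive it was 0, but 3 by DESeq2, 2 with no filter and 2 with the replicate block, and in T4 against naive 0, but 1 by DESeq2. DESeq2 called 1 of the 5 members in N4 against T4. All genes called numbered 2772, 27 and 1830 in N4 against naive, T4 against naive and N4 against T4, and 6246, 1997 and 5781 by DESeq2, 4257, 956 and 3834 with no filter, and 3620, 130 and 3367 with the replicate block.

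The replicate numbers are shared by the labels of all groups, and the labels do not tell whether they pair the libraries. Deviations from the group means of same-numbered libraries correlated at 0.017 (N4 and T4), 0.080 (N4 and naive) and 0.037 (T4 and naive). Such values over all genes cannot exclude a pairing, and the replicate block called more genes than the main test in each comparison (given above). The replicate block turned Slc39a10 in T4 against naive to 0.032 and ended the call of Hmox1 in N4 against naive (adjusted p = 0.050).

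Leaving out each library in turn gave values of either sign for these log2 fold changes. In T4 against naive the ranges were -0.30 to 1.39 for Mt1, -0.13 to 1.74 for Mt2, -0.74 to 0.12 for Mt3, -0.70 to 0.43 for Slc30a1, -0.52 to 0.52 for Slc39a10, -0.53 to 0.85 for Cox17, -0.27 to 0.014 for Fth1, -0.81 to 0.090 for Prdx1, -0.95 to 0.48 for Srxn1 and -0.62 to 0.081 for Nudt21. In N4 against T4 they were -0.21 to 1.02 for Mt1, -0.94 to 0.15 for Mt2 and -1.14 to 0.62 for Slc30a1, and in N4 against naive -0.49 to 1.44 for Mt2, -1.32 to 0.45 for Slc30a1 and -0.20 to 0.81 for Slc39a10.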
